A study of Mus musculus with 9 samples.

Results

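The high mobility group (HMG) genes encode small, abundant, non-histone proteins that bind chromatin. Followed here in the developing mouse retina were 9 of them: Hmgb1, Hmgb2 and Hmgb3 of the HMG-box class, Hmgn1, Hmgn2, Hmgn3 and Hmgn5 of the nucleosome-binding class, and Hmga1 and Hmga2 of the AT-hook class. The 9 genes were chosen by family name, out of 53280 genes in the count table, and the family was picked because Hmgb2 had been seen lower in the knockout. The difference of Hmgb2 between genotypes is therefore described here without a test, and the other 8 members were tested. All 9 passed the filter on low counts.

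The study measured poly-A RNA of neural retina at postnatal day 4 in 5 pools from Opn4 knockout pups (Opn4KO) and 4 pools from wildtype littermates (Opn4WT). Opn4 encodes melanopsin, the photopigment of intrinsically photosensitive retinal ganglion cells. Pups of both genotypes came from crosses of Opn4 heterozygotes, lived under about 300 lux of standard lighting, with retinas taken at ZT6 to ZT7 (6 to 7 h into the light phase), and each pool held 4 retinas of 2 animals of 1 genotype. The knockout was inherited through the germline and so was not limited to a cell type or age. The labels used here give neither the deleted part of Opn4, the strain, the sex of the pups nor the litters in a pool.

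HMG-box proteins (HMGB) bend DNA and loosen its wrapping, and they help remodelling complexes and transcription factors reach their sites. HMGB1 is present in nearly all cells and can also act outside them as a danger signal, while HMGB2 and HMGB3 are known for high levels in dividing and stem cells. HMGN proteins bind nucleosome cores and compete with linker histones, and HMGA proteins bind the minor groove of AT-rich DNA and are typical of embryonic and proliferating tissue. At postnatal day 4 the mouse retina still holds dividing progenitors, which at this age give mainly rods, bipolar cells and Müller glia.

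Sequence upstream of the transcription start is shown for Hmgb2 and Hmgb3, the pair whose pool-to-pool deviations ran together in the values given further on. Each sequence is the stretch of 250 bases before the RefSeq start (RefSeq, GRCm38.p6), 5′ to 3′ on the gene's strand, and neither overlaps an annotated exon. Capitals mark CCAAT, the box bound by NF-Y, and TTTGAA, the core of the cell cycle homology region (CHR) found in genes of mitosis, each on either strand. The Hmgb2 stretch lies at chr8:57511593-57511842 on the + strand and the Hmgb3 stretch at chrX:71555667-71555916 on the + strand.
Hmgb2: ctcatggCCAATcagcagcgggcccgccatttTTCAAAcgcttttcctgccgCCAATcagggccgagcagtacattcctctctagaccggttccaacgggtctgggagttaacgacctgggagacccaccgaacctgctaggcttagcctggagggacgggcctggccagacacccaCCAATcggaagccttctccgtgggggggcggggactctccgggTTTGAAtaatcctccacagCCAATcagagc
Hmgb3: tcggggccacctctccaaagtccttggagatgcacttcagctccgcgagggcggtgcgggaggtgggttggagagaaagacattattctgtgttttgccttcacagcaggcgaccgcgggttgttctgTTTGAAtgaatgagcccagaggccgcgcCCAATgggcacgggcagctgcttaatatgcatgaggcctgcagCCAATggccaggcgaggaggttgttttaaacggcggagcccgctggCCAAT

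The Hmgb2 stretch held 4 CCAAT boxes, at 243, 198, 73 and 11 bases before the start, and 2 TTTGAA words, at 218 and 30 bases. The Hmgb3 stretch held 3 CCAAT boxes, at 94, 51 and 5 bases, and 1 TTTGAA word at 122 bases. The first of the Hmgb1 stretches held 3 CCAAT boxes and no TTTGAA, and the other held neither. Hmgn1 and Hmgn5 had 2 CCAAT boxes each, while Hmgn2, Hmga1 and Hmga2 had none. Among 32851 stretches of the same length before gene starts, 2.79% held at least 3 CCAAT boxes, 0.84% at least 4, 16% at least 1 TTTGAA and 1.81% at least 2. The E2F words TTTGGCGC and TTTCCCGC were in 1.3% of all stretches and in none of the members'. Hmgn3 had no entry, so 8 of the 9 members matched the RefSeq table. These matches describe letters and do not show that a factor binds there.

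Opn4 itself was measured first, as the check of the labels. Its level was 1.07 to 1.82 CPM (a gene's counts scaled to its TMM library size) in knockout pools and 11.4 to 12 CPM in wildtype pools, a log2 fold change of -3.10 ± 0.14 (SE; edgeR quasi-likelihood test, adjusted p = 1.28e-07). Library totals were 65.5 M to 86.1 M counts (M, mega). Across all genes tested, 2.25% were called lower and 1.34% higher in the knockout at an adjusted p under 0.05. Knockout pools 1 and 2 stood apart in lens transcripts: the summed level of 7 lens markers was 12 and 10.1 CPM there and 2.42 to 4.43 CPM in the other 7 pools, and the lens crystallin Cryaa was at 4.65 and 3.28 CPM against at most 0.737 CPM elsewhere. Wildtype pool 3 stood apart in Xist, the transcript of the inactive X, with 14.1 CPM, where the other pools had 710 to 1066 CPM. Summed markers of red blood cells were at 56.7 to 75.4 CPM in knockout pools and 85.4 to 261 CPM in wildtype pools, with all 4 genes called lower, among them the globin gene Hbb-bs (22.5 to 28.4 against 34 to 101 CPM). The part of lens, blood or pool composition in the results below was not tested, and several values without knockout pools 1 and 2 are given.

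Levels can be compared between genes only per transcript length, for which the deposited kallisto TPM (transcript abundance scaled by length and sample total) were summed per gene. Hmgn2 was the most abundant member, with a mean of 2832 TPM over the 9 pools and 55.8% of the family's TPM. Hmgb1 followed with 793 TPM, Hmgn1 with 371, Hmgb3 with 315, Hmga1 with 308, Hmgb2 with 230, Hmgn3 with 188, Hmgn5 with 42.6 and Hmga2 with 3.3 TPM. The pools of Hmgn2 (2669 to 2988 TPM) and of Hmgb1 (679 to 889 TPM) did not overlap those of the next gene down. From Hmgn1 to Hmgn3, each gene's range over the pools overlapped that of its neighbour. Compared within each pool, Hmgn1 lay above Hmgb3 and Hmga1 above Hmgb2 throughout, while the order of Hmgb3 and Hmga1 changed between pools. Hmgn5 (37.5 to 47.2 TPM) and Hmga2 (2.65 to 4.23 TPM) lay apart at the bottom. Hmgb2 was at 261 to 298 TPM in wildtype, above every wildtype pool of Hmgn3. In knockout pools 1 and 2 it was at 156 and 168 TPM, below Hmgn3 in the same pools (181 and 187 TPM), and in the other 3 knockout pools at 203 to 217 TPM, above Hmgn3.

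**Figure D1:**
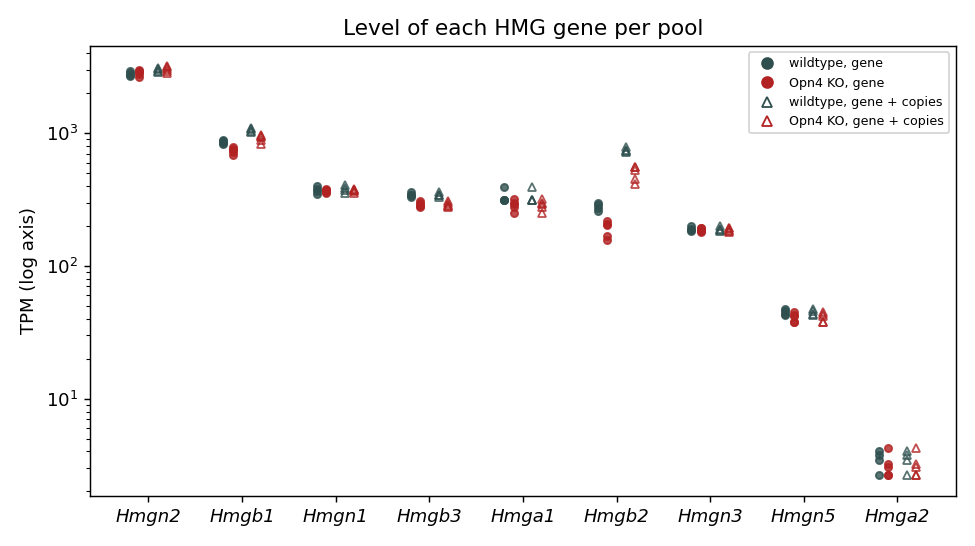
TPM of each HMG gene in each pool on a log axis, ordered by the mean over 9 pools. Circles are the gene alone and triangles the gene plus its near-identical copies, with wildtype in dark and Opn4 knockout in red. Hmgb2 moves from 230 TPM alone to 609 TPM with its copies.

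The HMG-box genes were lower in the knockout, and Hmgb2 differed most. Hmgb2 (ENSMUSG00000054717.7) lies at chr8:57511907-57515999 on the + strand (GRCm38, GENCODE M21, as for the genes below). It stood at 231, 258, 286, 284 and 293 CPM in the knockout (pools 1 to 5) and at 392, 397, 413 and 380 CPM in the wildtype (pools 1 to 4). All 5 knockout pools lay below all 4 wildtype pools, and knockout pools 1 and 2 were the lowest. The mean was 270 ± 26 CPM (SD, n = 5) against 396 ± 14 CPM (SD, n = 4), 68.3% of wildtype, or -0.55 ± 0.06 (SE) as a log2 fold change. Without knockout pools 1 and 2 the log2 fold change was -0.46. In these bulk pools, fewer cells that express a gene and less RNA of it per cell cannot be told apart.

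Hmgb1 (ENSMUSG00000066551.12; chr5:149046702-149184489, - strand), the most widely expressed member of its class, had 220, 189, 207, 201 and 210 CPM in the knockout and 260, 242, 268 and 251 CPM in wildtype pools. The groups did not overlap. The difference was -0.31 ± 0.05 on the log2 scale (SE; edgeR, adjusted p = 0.00284), with means of 206 ± 11 CPM (SD, n = 5) and 255 ± 11 CPM (SD, n = 4). Hmgb1 was at -0.31 also without knockout pools 1 and 2 (edgeR, adjusted p = 0.00697).

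Hmgb3 (ENSMUSG00000015217.11; chrX:71555918-71560676, + strand) had 185, 194, 205, 198 and 202 CPM in the knockout and 231, 233, 235 and 224 CPM in wildtype pools. Again no knockout pool reached the lowest wildtype pool. This made a log2 fold change of -0.23 ± 0.04 (SE; edgeR, adjusted p = 0.00558).

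The HMGN genes gave no call. Hmgn1 (chr16:96120618-96127729, - strand) was at 376 to 397 CPM in the knockout and 371 to 427 CPM in wildtype (log2 fold change -0.03 ± 0.04 SE; edgeR, adjusted p = 0.798). Hmgn2 (chr4:133964738-133968650, - strand) was at 1196 to 1332 CPM and 1180 to 1304 CPM (0.01 ± 0.05 SE; edgeR, adjusted p = 0.964). With knockout pools 1 and 2 left out, Hmgn2 was at -0.05. Hmgn3 (chr9:83109948-83146685, - strand) was at 73.2 to 80.5 CPM and 76 to 80.2 CPM (-0.03 ± 0.04 SE; edgeR, adjusted p = 0.818). In these 3 genes the groups overlapped and the standard errors were of the size of the differences or larger. Hmgn5 (chrX:109004534-109013404, - strand), a member with a long acidic tail, was at 33.3, 33.4, 37.1, 37.7 and 35.7 CPM in the knockout and 38.8, 40.9, 38.1 and 39.3 CPM in wildtype. Its groups did not overlap in CPM, but the log2 fold change of -0.15 ± 0.05 (SE) did not pass the threshold (edgeR, adjusted p = 0.182). Without knockout pools 1 and 2 it was -0.10 in counts, and in TPM it went from -0.13 to -0.05.

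The HMGA genes gave no call either. Hmga1 (chr17:27556497-27563674, + strand) was at 163, 184, 188, 188 and 203 CPM in the knockout and 203, 203, 250 and 208 CPM in wildtype, so that the highest knockout pool lay less than 1 CPM below the lowest wildtype pool. The difference was -0.22 ± 0.07 on the log2 scale (SE; edgeR, adjusted p = 0.125). Wildtype pool 3 was the highest, and without it the difference was -0.14 (edgeR, adjusted p = 0.27). Without knockout pools 1 and 2 it was -0.16 in counts and -0.13 in TPM. DESeq2 called Hmga1 lower at -0.22 (adjusted p = 0.0346). Hmga2 (chr10:120361275-120476469, - strand), the embryonic member of the class, was low at this age, with 4.47 to 6.8 CPM against 4.8 to 6.46 CPM (-0.16 ± 0.14 SE; edgeR, adjusted p = 0.631), on 340 to 581 counts per pool. Without knockout pools 1 and 2 its difference was -0.08.

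Of the 8 members that the choice did not use, edgeR called 2 lower in counts, Hmgb1 and Hmgb3, and 0 higher, beside 2.25% of all genes called lower and 1.34% called higher. An unadjusted p under 0.05 was found in 4 of the 8 and in 16.5% of all genes tested. DESeq2 called 3 of the 8, and 9.6% of the 15648 genes to which it gave an adjusted p. Of the 6 HMGN and HMGA genes, edgeR called 0, 2 had an unadjusted p under 0.05, and DESeq2 called 1. Of the 8, 7 had a negative log2 fold change, with a median of -0.15 against 0.00 over all genes tested. All knockout pools lay below all wildtype pools in CPM in 4 of the 8 (Hmgb1, Hmgb3, Hmgn5 and Hmga1), against 4.37% of all genes tested.

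**Figure D2:**
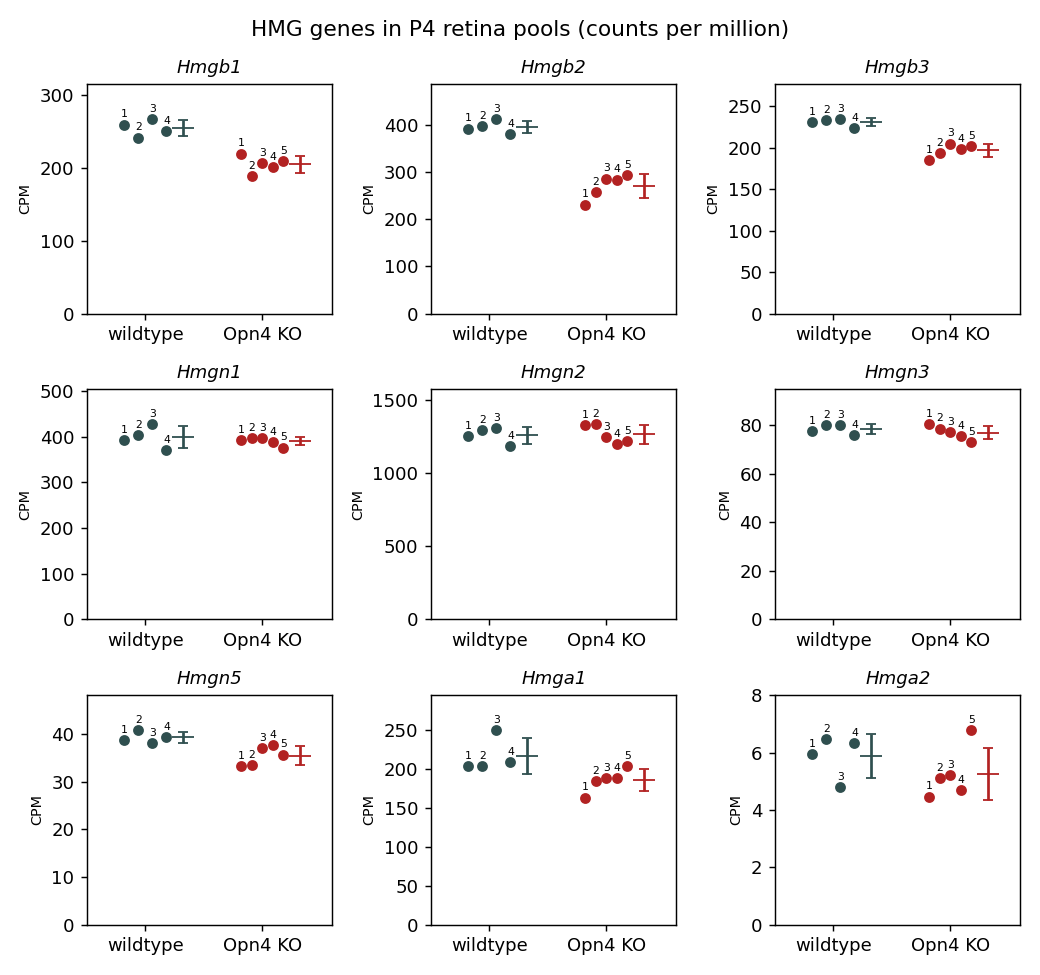
CPM of the 9 HMG genes per pool, with each axis starting at 0, points numbered by pool, and the mean with 1 SD beside each group. The knockout pools of Hmgb1, Hmgb2 and Hmgb3 lie below their wildtype pools, while those of Hmgn1, Hmgn2, Hmgn3 and Hmga2 overlap.

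The TPM, a second readout of the same libraries and not independent of the counts, gave close values for Hmgb2 and Hmgb3. For Hmgb1 the difference was smaller in TPM than in counts (-0.31) and was not called. Hmgb2 was at 156, 168, 208, 217 and 203 TPM in the knockout and 285, 273, 298 and 261 TPM in wildtype, -0.56 ± 0.10 (SE) on the log2(TPM + 0.5) scale. Hmgb3 was at 276 to 309 TPM and 332 to 362 TPM, -0.24 ± 0.05 (SE; limma-trend, adjusted p = 0.025), and this call was lost without knockout pools 1 and 2 (-0.20, adjusted p = 0.112) and also without knockout pool 2 (adjusted p = 0.0744), knockout pool 4 (0.0614), wildtype pool 1 (0.075), wildtype pool 2 (0.0733) or wildtype pool 4 (0.0506). Hmgb1 was at 679 to 788 TPM and 833 to 889 TPM, -0.21 ± 0.05 (SE; limma-trend, adjusted p = 0.068). The groups of all 3 genes did not overlap, whereas those of the 6 HMGN and HMGA genes did. Of the 8 members other than Hmgb2, limma-trend called 1 lower in TPM, Hmgb3, beside 1.54% of all genes called lower and 0.621% called higher. All knockout pools lay below all wildtype pools in TPM in 2 of the 8, against 3.97% of all genes.

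Summed over the class, HMGB transcripts were at 1111, 1202, 1306, 1270 and 1225 TPM in the knockout and at 1497, 1456, 1549 and 1426 TPM in wildtype, a mean of 82.5% of wildtype. The 4 HMGN genes together were at 3447 ± 140 TPM (SD, n = 5) and 3416 ± 127 TPM (SD, n = 4). The 2 HMGA genes together were at 291 ± 26 TPM (SD, n = 5) and 338 ± 40 TPM (SD, n = 4), and their pools overlapped. In these TPM, which leave out near-identical copies, the HMGB sum rests mostly on Hmgb1, and Hmgb2 was lower also relative to its own class. The ratio of Hmgb2 to Hmgb1 was 0.224 to 0.285 in knockout pools and 0.313 to 0.335 in wildtype pools. The ratio of Hmgb2 to Hmgb3 was 0.567 to 0.751 and 0.786 to 0.84. Both ratios contain the gene on which the family was chosen and are given without a test.

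The authors' deposited table, made with sleuth, gave a negative sign for 8 of 9 members and no call, with smaller sizes than the counts for Hmgb1, Hmgb2, Hmgb3 and Hmga1. Converted to log2 with knockout minus wildtype, the authors' deposited table had Hmgb2 at -0.44 (SE 0.16), Hmgb1 at -0.16 (SE 0.07), Hmgb3 at -0.18 (SE 0.08) and Hmga1 at -0.19 (SE 0.10). None of the 9 members, Hmgb2 included, had a q-value under 0.05 in the authors' deposited table, where 0.815% of 17433 genes were lower in the knockout at that threshold. Its q-values were 0.243 for Hmgb1, 0.272 for Hmgb3 and 0.431 for Hmga1 in the authors' deposited table.

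**Figure D3:**
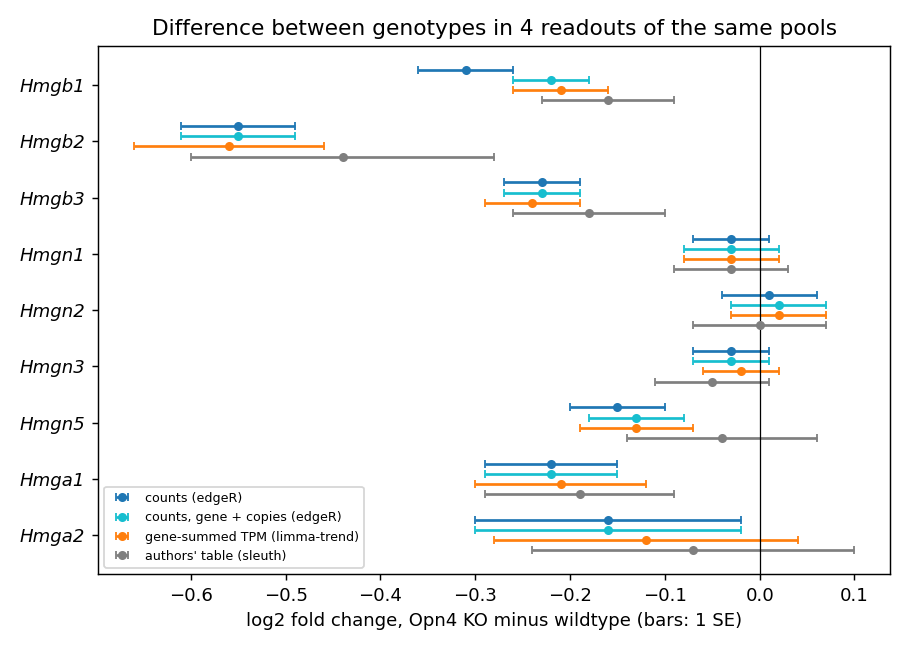
Log2 fold change of each HMG gene, Opn4 knockout minus wildtype, with bars of 1 SE, in counts, in counts with copies summed, in gene-summed TPM and in the authors' table. Hmgb2 lies between -0.56 and -0.44 in all 4, and Hmgn1, Hmgn2 and Hmgn3 lie near 0.

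HMG genes are rich in processed copies, retrotransposed transcripts without introns, whose reads can hardly be told from those of the parent. Copies were searched among GENCODE M21 transcripts at 95% identity or more over 50% or more of the copy. Hmgb1 had 67 such copies, Hmgn2 had 13, Hmgb2 had 5, Hmgn1 had 4, and Hmgb3, Hmgn5 and Hmga1 had 1 each. For Hmgn3 and Hmga2 the search found 0.

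The 2 tables split parent and copies differently. In counts, copies of Hmgb1 took 53.5 to 60.5% of the sum of parent and copies, led by Gm15387 (17%) and Gm21596 (13.6%), while those of Hmgb2 took 7.16 to 8.06%. In TPM the order turned: copies took 15.3 to 24.1% for Hmgb1 and 60.5 to 63.5% for Hmgb2. Nearly all of the latter was Gm4739, a processed pseudogene on chromosome 10 (chr10:26107789-26108421, + strand, GRCm38) that matches Hmgb2 at 99.68% over 633 bases. Gm4739 held 62.1% of the summed TPM and 5.27% of the summed counts. Copies of Hmgn2 took 15 to 19.7% of counts, led by Gm10282 (12.2%), and 5.35 to 6.12% of TPM. Hmga1b, annotated as protein-coding, took 18.3% of the Hmga1 counts and copies of Hmga1 took at most 0.47% of its TPM.

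**Figure D4:**
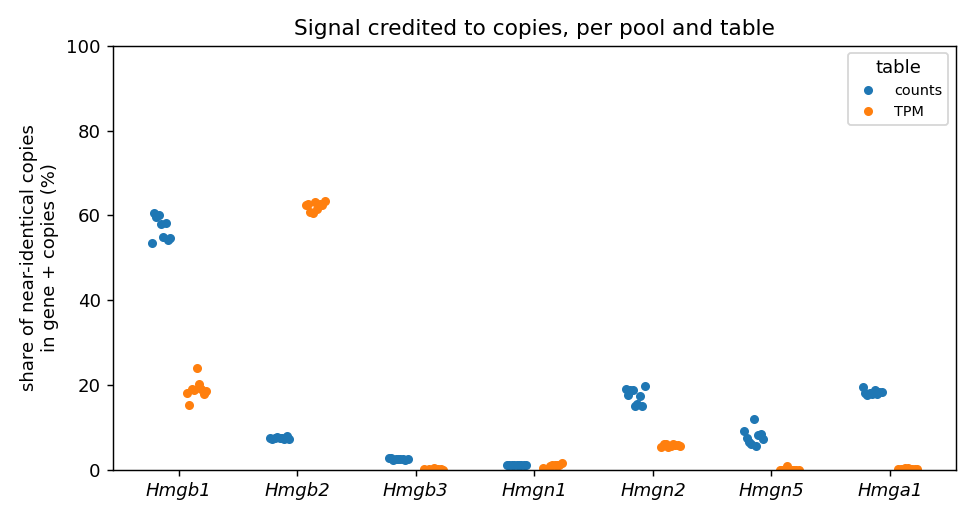
Share (%) of near-identical copies in the sum of parent and copies, per pool, in counts (blue) and TPM (orange). Copies of Hmgb1 hold 53.5 to 60.5% of counts and those of Hmgb2 60.5 to 63.5% of TPM.

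The copies of Hmgb2 differed between genotypes like Hmgb2 itself, with all 5 negative and a median log2 fold change of -0.63. Gm4739 was at 13.9 to 17 CPM in knockout pools and 20.4 to 25.6 CPM in wildtype pools, a log2 fold change of -0.53 ± 0.09 (SE). In TPM Gm4739 was at 260, 284, 322, 332 and 348 in the knockout and 456, 458, 493 and 453 in wildtype. Its reads can hardly be told from those of Hmgb2, so these values are a description too. Of the 23 Hmgb1 copies tested in counts 17 were negative, with a median of -0.11. Gm15387 was at -0.15 ± 0.06 (SE; edgeR, adjusted p = 0.174) and Gm21596 at -0.18 ± 0.06 (SE; edgeR, adjusted p = 0.115). The other Hmgb1 copies with at least 1% of the summed counts, Gm5518, Hmgb1-ps2, Gm5527, Hmgb1-ps3, Gm8319, Gm37164 and Gm10075, lay between -0.23 and -0.07. The Hmgb3 copy Gm6104 was at -0.19 ± 0.09 (SE; edgeR, adjusted p = 0.336), the Hmgn5 copy Gm11914 at 0.03, and the Hmgn2 copies Gm10182 and Hmgn2-ps1 at 0.06 and 0.07. Hmga1b was at 39.7 to 44.1 CPM and 44.4 to 56.4 CPM (-0.23 ± 0.07 SE; edgeR, adjusted p = 0.0868), while the authors' deposited table had it at 0.83 (SE 0.64). Gm10282 was at 143 to 227 CPM and 153 to 212 CPM (0.13 ± 0.12 SE; edgeR, adjusted p = 0.68).

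Summing each parent with its copies takes the split out of the comparison in counts, but not fully in TPM, which are scaled by the length of each transcript. In counts this holds only if each read was counted once, which the sources used here do not say. Hmgb1 with its copies was at 473, 479, 514, 504 and 499 CPM in the knockout and 578, 578, 586 and 555 CPM in wildtype. The groups lay apart, with a log2 fold change of -0.22 ± 0.04 (SE; edgeR, adjusted p = 0.00755) against -0.31 for the parent alone. Hmgb2 with its copies was at -0.55 ± 0.06 (SE), and Hmgb3 with its copy at -0.23 ± 0.04 (SE; edgeR, adjusted p = 0.00535). In TPM the sum for Hmgb2 was 416, 453, 530, 551 and 552 in the knockout and 743, 732, 792 and 715 in wildtype. With copies included Hmgb2 ranked 3 in the family at a mean of 609 TPM, after Hmgn2 (3005 TPM) and Hmgb1 (980 TPM), and above Hmgn1 (374 TPM). This rank depends on the split, since Gm4739 held 62.1% of the summed TPM of Hmgb2 and 5.27% of its summed counts.

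Overlapping genes are a further limit of the counts, since the sources used here do not say whether counting used strand. Uspl1 overlaps Hmgb1 on the opposite strand, with a mean of 4203 counts per pool, against 13484 to 22419 counts for Hmgb1. AI413582 overlaps Hmga1 on the opposite strand with a mean of 813 counts, against 12246 to 20710 for Hmga1. The lincRNA Mm2pr overlaps Hmgb1 on the same strand and is not among the counted genes. Exons of Hmgb2, Hmgb3, Hmgn1, Hmgn2 and Hmgn5 overlapped no exon of another gene in the annotation. Overlaps outside exons were not searched.

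The deposited TPM list several transcripts per gene without identifiers, which allowed a check of whether 1 transcript carried the differences. The leading transcript of Hmgb2 held 74.1 to 88.9% of the gene's TPM in knockout pools and 77.7 to 84.2% in wildtype pools. Its level was 131 to 170 TPM in the knockout and 212 to 251 TPM in wildtype, without overlap. The next transcript of Hmgb2 was at 17.5 to 54.6 TPM and 46 to 62.4 TPM, with overlap. For Hmgb1 the leading share was 29.4 to 33.2% and 31.1 to 36% (exact permutation test, two-sided, p = 0.175, adjusted p = 0.714 over 6 members). For Hmgb3 it was 39.5 to 49.6% and 43.3 to 45.3% (exact permutation test, two-sided, adjusted p = 0.825). The leading shares of all 6 members tested overlapped between genotypes, with 0.175 as the smallest unadjusted p of these exact tests, and Hmgn5 and Hmga2 had only 1 transcript at 1 TPM or more.

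Genes of replication and mitosis are where HMGB2 is usually placed, and all 22 listed were called lower, beside 2.25% of all genes. Their median log2 fold change was -0.58, against 0.00 over all genes. Without knockout pools 1 and 2, 20 were called and the median was -0.49. Rrm2, a subunit of ribonucleotide reductase, was at 25.4 to 36.3 CPM in the knockout and 48 to 60.2 CPM in wildtype (-0.83 ± 0.09 SE; edgeR, adjusted p = 0.000313). Mcm3, part of the replicative helicase, was at 21.1 to 33.4 CPM and 44.6 to 48.4 CPM (-0.77 ± 0.10 SE; edgeR, adjusted p = 0.000839). The mean log2 level of the list, relative to all pools, was -0.42, -0.41, -0.18, -0.18 and -0.13 across the knockout pools in order, and 0.32 to 0.35 across wildtype pools. Hmgb2 was lowest in the same 2 pools and highest among knockouts in the same pool 5. The part of the share of dividing cells in the lower Hmgb2 was not tested.

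**Figure D5:**
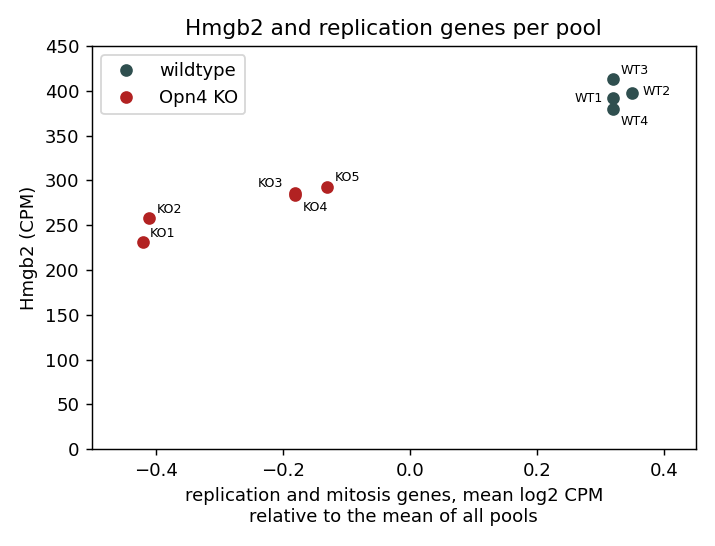
Hmgb2 (CPM) against the mean log2 CPM of 22 replication and mitosis genes, centred on the average over pools, for each pool. Knockout pools (red) lie at -0.42 to -0.13 and 231 to 293 CPM, and wildtype pools (dark) at 0.32 to 0.35 and 380 to 413 CPM.

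Summed markers of 5 retinal cell types (photoreceptor precursors, ganglion, amacrine and horizontal cells, and Müller glia) stood at 91 to 123% of wildtype. Summed photoreceptor precursor markers were at 3058 to 3669 CPM in the knockout and 2877 to 3036 CPM in wildtype. Of these markers, 1 of 5, the rod factor Nrl, was called, higher. Müller glia markers were at 476 to 549 CPM and 456 to 498 CPM, with overlap, and 1 of 2 was called. Ganglion, amacrine and horizontal cell markers gave 0 calls. Among all genes, 2.25% were called lower and 1.34% higher. Ganglion cell markers were at 246 to 293 CPM and 275 to 330 CPM, with overlap. No marker of these types was at 0 in all pools, and the part of cell composition in the HMG differences was not tested.

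Deviations of each pool from the mean of its own genotype show which genes followed Hmgb2 among pools, apart from the genotype difference. Hmgb2 spread more among knockout pools (231 to 293 CPM) than among wildtype pools (380 to 413 CPM). Its r values therefore rest largely on the knockout pools, above all on pool 1, the lowest. They were not computed without knockout pools 1 and 2, which stood apart in lens transcripts. Over 9 pools and 11079 genes with a mean of at least 10 CPM, the genes most like Hmgb2 by Pearson's r of log2 CPM were Cnp (0.99), Tagln2 (0.98), Clic1 (0.98), Shcbp1 (0.98) and Rgs16 (0.98). Genes of the replication and mitosis list ranged widely. Cdk1, the mitotic kinase, had 0.97, while Ccna2 and Tyms had 0.43, Mki67 had 0.09 and Ccne2 had -0.13. These 5 genes were picked after their values were seen, as the highest and the lowest of the list. The other genes of the list that were compared lay between 0.59 (Mcm4) and 0.91 (Mcm3). Within the family, Hmgb3 had 0.94 and rank 64, Hmga1 had 0.77, and Hmgn5 had 0.68. Hmgb1 had -0.11, Hmgn1 0.07, Hmgn2 -0.48 and Hmgn3 -0.58. All these points share the same libraries and their depth, and no p is given.

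Genes that work with HMG proteins were followed as 5 further lists. A list of HMG-box and other chromatin genes outside the family, among them Ssrp1, Tfam, Kdm1a and Rcor1, gave 0 calls by edgeR among 22 tested. Its median log2 fold change was -0.05. Of the 22, 4 had an unadjusted p under 0.05 and DESeq2 called 3, where all genes gave 16.5% and 9.6%. Linker histones compete with HMGN proteins for nucleosomes. Together with their loaders they gave 2 calls lower and 0 higher among 9, beside 2.25% and 1.34% of all genes, with a median of -0.19. The list includes Hist1h1 genes, and poly-A libraries measure transcripts without a poly-A tail poorly. H1fx was at 76.8 to 96.9 CPM in the knockout and 98.7 to 164 CPM in wildtype (-0.62 ± 0.12 SE; edgeR, adjusted p = 0.0103). H1f0, the linker histone typical of cells leaving the cycle, was at 530 to 609 CPM and 675 to 886 CPM (-0.42 ± 0.08 SE; edgeR, adjusted p = 0.00672). Without knockout pools 1 and 2, 1 of the 9 was called.

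The SET complex, in which HMGB2 is found with SET and APE1, had 1 of 7 genes called lower, beside 2.25% of all genes. This was Anp32b, a histone chaperone, at no more than 137 CPM in the knockout and 156 to 174 CPM in wildtype (-0.32 ± 0.04 SE; edgeR, adjusted p = 0.00145). Receptors and partners of HMGB1 outside the cell, such as Ager and Tlr4, gave 0 calls by edgeR among 9, with 1 at an unadjusted p under 0.05 and 1 called by DESeq2. Regulators and targets of HMGA2 gave 2 calls lower among 10, beside the same 2.25%. Ccnd1, the cyclin of G1, was at 767 to 1101 CPM and 1295 to 1337 CPM (-0.51 ± 0.09 SE; edgeR, adjusted p = 0.00465). Igf2bp1, an RNA-binding protein of embryonic tissue, was at 13.1 to 15.3 CPM and 18 to 20.2 CPM (-0.48 ± 0.07 SE; edgeR, adjusted p = 0.00149). These lists were drawn up with results of the same libraries known, and their counts describe them without a test of the list.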

How the data were processed

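Whole-number counts per gene symbol were deposited by the authors; the counting program, its use of strand and its handling of reads that match several places are not given in the sources used here. Per the labels and the submitters' processing notes, reads of 150 bases were trimmed with Trimmomatic 0.39 and quantified on GRCm38 with kallisto 0.46.1. The deposited TPM are listed per transcript row; their column sums run from 953963 (knockout pool 1) to 1083977 (wildtype pool 3), so they are treated as a signal rescaled by the authors. Of 118489 rows, 1673 without a symbol and 188 with a symbol of digits were left out. The authors' sleuth 0.30.8 table holds, per the file headers, a p-value and a q-value for each gene. Its effect is on the natural log scale of the deposited values and was turned here into log2, signed as knockout minus wildtype.

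Counts were tested with edgeR 4.0.16 (filterByExpr, TMM, quasi-likelihood F test, two-sided, Benjamini-Hochberg over 21150 genes, threshold 0.05) in R 4.3.3. SE is the log2 fold change divided by the root of F. Gene-summed TPM were tested with limma 3.58.1 (limma-trend) on log2(TPM + 0.5), for 15295 genes with at least 1 TPM in at least 4 pools. Both fits were tested on simulated data. Copies were found with BLAST 2.17.0. Pools of a genotype came from separate animals. Alternatives were DESeq2 1.42.0, RLE factors, robust dispersion, other filters and pseudocounts, a replicate block, left-out pools and summed copies; rescaled TPM and summed copies in TPM were added after seeing the data.

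The members and all lists were chosen with earlier results of these data known. Named are the 9 members, copies with at least 1% of the counts of parent plus copies, from each list the 2 genes with the largest called change in each direction, the 5 genes most like Hmgb2, and Opn4, Cryaa, Hbb-bs and Xist as checks. The summed progenitor markers are not reported here.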

Additional observations from a re-analysis of the deposited data

Results flagged for a closer look

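Hmga1 had 1 wildtype pool far from the other 3. Wildtype pool 3 was at 250 CPM, where the others were at 203 to 208 CPM, and at 395 TPM, where the others were at 313 to 315 TPM. The gap to the nearest pool was 0.898 of the whole range in CPM and 0.978 in TPM, above Dixon's limit for 4 samples. The 2 values come from 1 library, and chance flags about 1 in 20 of the 50 groups checked. The same pool had the lowest Xist (14.1 CPM) and the highest Hbb-bs (101 CPM) of the 9 pools. Their part in the Hmga1 value was not tested.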

How the results depend on the processing

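Hmgb1 and Hmgb3 were called lower in counts in all 17 fits, with log2 fold changes of -0.34 to -0.22 and -0.25 to -0.20. The value of Hmgb2, untested, was -0.58 to -0.46 in counts and -0.61 to -0.41 in TPM. Hmga1 was called in 2 of 17, with DESeq2 and with the replicate block. In TPM, Hmgb3 was called in 11 of 17 fits and Hmgb1 in 1, that with each pool's TPM rescaled to the same sum (-0.19, limma adjusted p = 0.0238). Family calls in TPM, which count Hmgb2, were 2 with all pools, 1 without knockout pools 1 and 2, and 0 to 2 when single pools were left out, with 0 without wildtype pool 1.

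Over all genes, DESeq2 called 826 lower and 676 higher in counts, against 476 and 284 by edgeR. Genes called higher in counts were 152 without the low-count filter and 134 without knockout pools 1 and 2. Genes called lower in TPM were 235 as reported, 148 without the low-value filter, 149 with the replicate block and 119 without knockout pools 1 and 2, and those called higher were 95, 46, 66 and 35. Leaving out single pools gave 359 to 512 lower and 153 to 347 higher in counts, and 122 to 248 lower and 33 to 116 higher in TPM. The causes were not tested.

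With the replicate block, Hmga1 was called lower in counts besides Hmgb1 and Hmgb3, at -0.25 (edgeR, adjusted p = 0.0343). Over all genes, the fit with the block called 523 lower and 365 higher. The labels do not say that pool numbers mark a shared litter or day. Deviations of same-numbered pools correlated at 0.002, -0.031, 0.006 and -0.03, within the range of pools with different numbers (-0.093 to 0.077). Over all genes tested, the numbers thus gave no sign of pairing. Such a correlation cannot decide whether a shared litter or day affects some genes.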
